A study of Mus musculus with 5 samples.

Results

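The CCN genes and a small set of YAP target genes were followed at the transcript level in cultured cardiac fibroblasts (CF). The members were 8 of the 20365 gene names in the SLAMseq tables, chosen by name: *Ccn1*, *Ccn2*, *Ccn3*, *Ccn4* and *Ccn5*, and *Ankrd1*, *Amotl2* and *Lats2*. CF came from healthy hearts of adult male C57Bl/6J wildtype mice, were depleted of endothelial and immune cells with magnetic beads and were grown to confluency. In 3 labeled libraries the cells received 0.1 mM 4-thiouridine (S4U) for 12 h. In 2 unlabeled libraries they were kept in parallel for the same time without it. RNA of both groups was alkylated. SLAMseq was made on 3 separate CF preparations. The number of animals in each, and the preparation behind each unlabeled library, are not stated in the sources used here. SLAMseq reads 2 quantities from each library. One is the number of reads at the 3′ end of a transcript. The other is the T>C conversion rate, the fraction of covered T positions read as C, which rises with the share of a transcript that was made while S4U was present.

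CCN proteins are secreted, cysteine-rich matricellular proteins. They bind integrins and growth factors and regulate adhesion, growth and matrix production rather than forming structural fibers. YAP and its relative TAZ are coactivators that enter the nucleus and bind TEAD transcription factors when the Hippo kinases are inactive, as in spread cells under tension. *Ccn1* (formerly Cyr61), *Ccn2* (connective tissue growth factor) and *Ankrd1* are standard readouts of this activity. *Amotl2*, a junctional scaffold that holds YAP outside the nucleus, and *Lats2*, the kinase that phosphorylates YAP, are targets that feed back on the pathway.

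One 3′ UTR interval stood for each gene, the one with the highest mean deposited CPM in the labeled libraries, and every interval lay within the last exon and the annotated UTR. *Ccn1* (ENSMUSG00000028195.6) was counted on chr3:145352726-145353420 of GRCm39, minus strand. *Ccn2* (ENSMUSG00000019997.13) was counted on chr10:24473510-24474581, plus strand. *Ccn3* (ENSMUSG00000037362.10) and *Ccn4* (ENSMUSG00000005124.12) were counted on the plus strand of the same chromosome, on chr15:54615902-54617158 and chr15:66791304-66795050. *Ccn5* (ENSMUSG00000027656.9) was counted on chr2:163674358-163675066, plus strand. *Ankrd1* (ENSMUSG00000024803.11) was counted on chr19:36089365-36090106, minus strand. *Amotl2* (ENSMUSG00000032531.17) was counted on chr9:102608906-102610612, plus strand. *Lats2* (ENSMUSG00000021959.18) was counted on chr14:57927119-57928744, minus strand, within an annotated readthrough gene of the same strand (Gm49361), so its reads are less certain. No annotated gene on the other strand overlapped any of the 8 intervals.

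Sequences of 2 kinds are shown, because the rates are read on 3′ UTRs and because YAP acts through TEAD at promoters. AU-rich elements, copies of ATTTA that often mark short-lived transcripts, were searched on the transcript strand of each interval, and the longer forms TATTTAT and TTATTTATT contain ATTTA and one another. *Ankrd1* held 4 copies of ATTTA, all within TATTTAT, and 2 of TTATTTATT, which 4.43% of the 2166 intervals within 10% of its length hold at least once. *Lats2* held 6 copies of ATTTA and 1 of TTATTTATT, which 7.66% of intervals of similar length hold. *Ccn1* held 5 copies of ATTTA, where 2.95% of intervals of similar length have as many, and 2 of TATTTAT. *Ccn3* held 5 copies of ATTTA and 1 of TATTTAT, *Ccn4* held 4 of ATTTA, *Ccn2* 2 and *Amotl2* 1. As many copies of ATTTA are held by 8.63% of intervals of similar length for *Ankrd1*, 15.2% for *Ccn3*, 16.2% for *Lats2*, 47.4% for *Ccn2*, 73.5% for *Ccn4* and 87.6% for *Amotl2*. *Ccn5* had none, and 60.8% of intervals of its length have at least 1. The longest form in *Ankrd1*, *Lats2*, *Ccn1* and *Ccn3*, the members with a form longer than ATTTA, is given in capitals within 30 bases of GRCm39, 5′ to 3′ on the transcript strand.
Ankrd1, chr19:36089908-36089937: ttcaccacttTTATTTATTcctacctattt
Ankrd1, chr19:36089890-36089919: tcctacctatTTATTTATTtcatagcacca
Lats2, chr14:57927170-57927199: aatttaactaTTATTTATTgatatatcatt
Ccn1, chr3:145352847-145352876: gaatgttttttTATTTATcaaagtgtagct
Ccn1, chr3:145352754-145352783: tgaagagaattTATTTATaaaattaatcat
Ccn3, chr15:54616981-54617010: tctttttaaagTATTTATgaaaatataaat

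The TEAD motif GGAATG was searched on both strands of promoters from RefSeq (GRCm38.p6, 300 bases around the gene start). Promoters of 4 members were matched, *Ccn1*, *Ankrd1*, *Amotl2* and *Lats2*, and those of *Ccn2*, *Ccn3*, *Ccn4* and *Ccn5* were not analysed here. The motif was present in each of the 4, in *Ankrd1* at 2 places and in *Lats2* in 1 of its 2 promoters, and 14.7% of all 32851 promoters hold it. Capitals mark the motif, which reads CATTCC where it lies on the other strand.
Ccn1 promoter, minus strand, chr3:145650071-145650100: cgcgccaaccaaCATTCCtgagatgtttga
Ankrd1 promoter, minus strand, chr19:36120037-36120066: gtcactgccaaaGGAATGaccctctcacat
Ankrd1 promoter, minus strand, chr19:36119950-36119979: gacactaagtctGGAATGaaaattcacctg
Amotl2 promoter, plus strand, chr9:102717727-102717756: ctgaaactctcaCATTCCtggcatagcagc
Lats2 promoter, minus strand, chr14:57746102-57746131: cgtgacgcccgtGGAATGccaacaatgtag

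The libraries were fibroblast libraries by their markers. Levels are given as RPM, the reads of a gene per 1000000 reads counted on 1 interval per gene, of which the libraries hold 506045 to 1842706. All 7 fibroblast markers had reads in every library, and their sum was 29846 to 32815 RPM in the labeled and 22708 to 26453 in the unlabeled libraries. Of 8 cardiomyocyte markers, 1 had reads in every library, and they summed to 1.27 to 8.37 RPM labeled and 2.17 to 9.04 unlabeled, with *Ryr2* and *Myl2* at 0. The 5 endothelial markers, all with reads in every library, summed to 92.9 to 165 labeled and 133 to 187 unlabeled. The 6 leukocyte markers, 3 of them with reads in every library, summed to 29.6 to 46.0 and 32.6 to 40.2, with *Cd3e* and *Cd79a* at 0. The 5 markers of smooth muscle and pericytes, 3 with reads in every library, summed to 16.7 to 33.6 labeled and 9.04 to 12.5 unlabeled, with *Myh11* at 0. The 4 epicardial markers, 1 with reads in every library, summed to 3.81 to 5.93 and 0.543 to 1.00, with *Msln* and *Krt19* at 0. The fibroblast, smooth muscle and epicardial sums were thus higher in every labeled than in every unlabeled library. The first was mostly *Col1a1* and *Col1a2*, and the other sums rested on few reads. *Wt1*, most of the epicardial sum, had 6, 5 and 3 reads labeled and 1 and 1 unlabeled. *Cnn1*, the largest smooth muscle marker, had 23, 13 and 10 reads labeled and 11 and 6 unlabeled. Single fibroblast markers did not move together: *Col1a1*, a fibrillar collagen chain, was above both controls in each labeled library, at 12755 to 13293 against 8785 and 9661 RPM. *Pdgfra*, a growth factor receptor of fibroblasts, was below them, at 516 to 525 against 722 and 841 RPM, and the other 5 overlapped. Of the 9806 genes tested for reads, 8.21% were likewise above both controls in each labeled library and 13.1% below them. The part of these markers in the read differences given below was not tested. Fewer cells of a type and less RNA per cell cannot be told apart in such libraries.

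*Ccn2* stood far above the other members. It had 3061, 2599 and 3306 RPM in labeled replicates 1, 2 and 3, a mean of 2989 ± 359 (SD, n = 3) and rank 17 of 20365 genes by RPM. Levels of different genes were set against each other per kilobase of interval, although libraries of 3′ ends give reads near the end of a transcript. On this scale *Ccn2* had 2788 ± 335 RPM per kilobase (SD, n = 3 here and for the genes that follow). *Ccn1* had 927 ± 535, *Ccn5* 901 ± 176 and *Ankrd1* 701 ± 128 RPM per kilobase. *Amotl2* had 192 ± 7.04, *Lats2* 133 ± 19.5, *Ccn4* 76.8 ± 8.54 and *Ccn3* 37.0 ± 11.2. *Ccn1* and *Ccn5* did not differ beyond their spread, and *Ccn1* was the higher in 1 of 3 labeled libraries. Each other neighbouring pair differed by more than the larger of its SDs and kept its order in 3 of 3 labeled libraries, except that *Ccn5* was above *Ankrd1* in 2 of 3. Without the division by length, *Ccn4* (288 ± 32.0 RPM) passed *Lats2* (215 ± 31.7), and *Ccn5* (638 ± 125) and *Ankrd1* (520.4 ± 95.0) differed by less than the larger SD. *Ccn6*, the last gene of the family, had 0 reads in all 5 libraries.

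**Figure D1:**
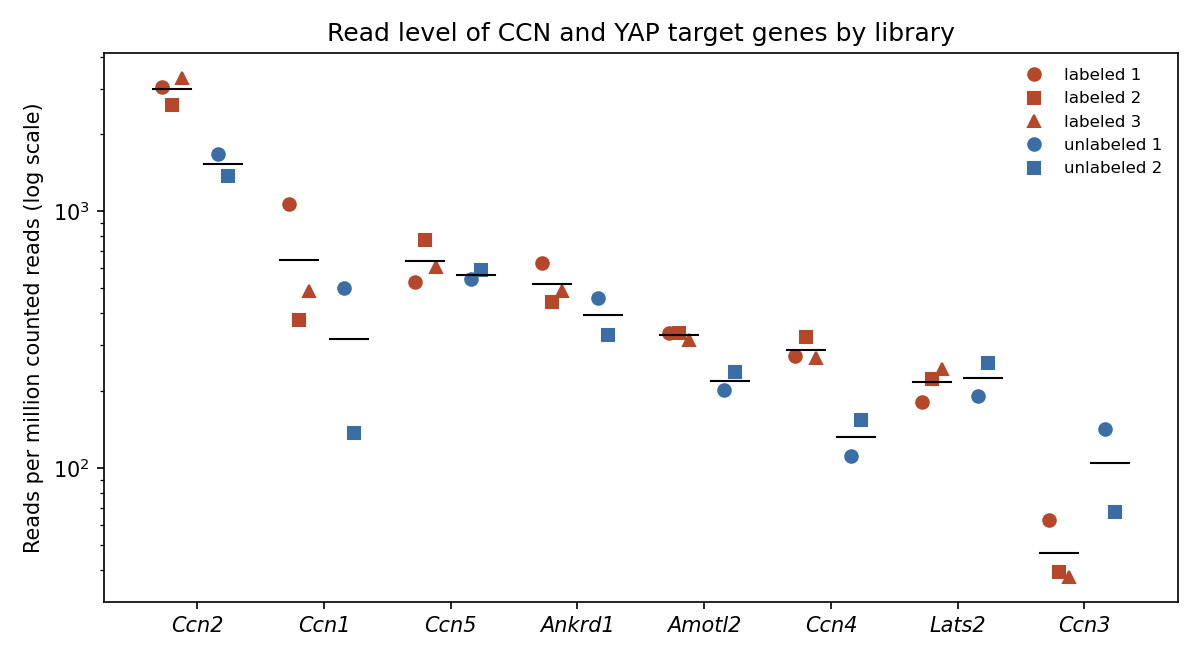
RPM, reads per 1000000 counted reads (log axis), of the 8 genes in each library, with labeled libraries in red, unlabeled libraries in blue, and a black line at each group mean. The 3 labeled libraries of *Ccn2* lie between 2599 and 3306, above every other gene, and the symbols of the groups do not overlap for *Ccn2*, *Ccn4*, *Amotl2* and *Ccn3*.

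The T>C conversion rate was raised by S4U in each of the 8 genes. Every labeled library lay above both unlabeled libraries, and the beta-binomial test gave an unadjusted p below 0.05 for 8 of 8 genes. Such a rise was general: of the 19240 intervals that could be tested, 94.6% passed in the same direction and in 89.2% the labeled libraries all exceeded both controls. The rates of the 8 genes were therefore set against those of 3156 deeply covered intervals, defined by a minimum of 1000 covered T positions per library, whose median labeled rate was 0.0390 with quartiles at 0.0349 and 0.0424.

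*Ankrd1* and *Ccn4* had the highest rates. *Ankrd1*, a nuclear and sarcomeric ankyrin repeat protein of muscle that is also induced in stretched fibroblasts, had rates of 0.0557, 0.0540 and 0.0474 in labeled replicates 1, 2 and 3. Its mean of 0.0523 ± 0.00440 (SD, n = 3) was higher than 99.7% of these intervals. Without S4U it had 3 conversions in each library, of 19122 and 6710 covered T positions. *Ccn4* (formerly Wisp1), a secreted protein known as a Wnt-induced gene, had 0.0496, 0.0537 and 0.0522. The mean of 0.0518 ± 0.00203 (SD, n = 3) was higher than 99.6% of the intervals, and the unlabeled rates were 0.00137 and 0.000266. The rates of these 2 genes did not differ beyond their spread, and the lowest labeled library was still higher than 96.8% of the intervals for *Ccn4* and 87.5% for *Ankrd1*. Among all intervals with a minimum of 100 covered T positions per library, the means were higher than 97.5% for *Ccn4* and 97.8% for *Ankrd1*.

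*Ccn1* followed with rates of 0.0477, 0.0442 and 0.0471, a mean of 0.0463 ± 0.00183 (SD, n = 3) that was higher than 93.9% of the intervals. *Lats2* had 0.0445, 0.0455 and 0.0407, a mean of 0.0436 ± 0.00250, higher than 83.4%. *Ccn2* had 0.0432, 0.0435 and 0.0434, a mean of 0.0434 ± 0.000136, higher than 82.3%. *Ccn2* was the most deeply covered of the 8, with 44332 to 127223 covered T positions in a labeled library. Its 3 rates differed by less than their counting error, each lying inside the 95% Wilson interval of the others. The level of *Ccn2* in the same 3 libraries ranged from 2599 to 3306 RPM.

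*Ccn5* lay at the middle of the deeply covered intervals and *Amotl2* below it. *Ccn5* (formerly Wisp2), the CCN protein without the C-terminal cystine knot domain, had rates of 0.0357, 0.0399 and 0.0416. The mean of 0.0391 ± 0.00307 (SD, n = 3) was higher than 50.6% of the intervals. In the unlabeled libraries it had 1 conversion of 7270 covered T positions and 0 of 8452, which allows a rate of up to 0.000355. *Amotl2* had 0.0357, 0.0336 and 0.0376, a mean of 0.0356 ± 0.00203 (SD, n = 3), higher than 28.2% of the intervals. The rate of *Ccn5* was above that of *Amotl2* in 2 of 3 labeled libraries. Every labeled rate of *Ankrd1* and *Ccn4* lay above every labeled rate of *Ccn5* and *Amotl2*.

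*Ccn3* (formerly Nov), which often opposes *Ccn2* in fibrosis models, stood apart by its spread. Its rates were 0.0149 in labeled replicate 1, 0.0423 in replicate 2 and 0.0103 in replicate 3, from 1876, 992 and 387 covered T positions. The 95% Wilson interval of replicate 2, 0.0315 to 0.0567, did not meet those of replicate 1, 0.0103 to 0.0215, or replicate 3, 0.00403 to 0.0263, and these intervals cover counting error only. The same library stood out by reads, since 53.2% of the 47 reads of *Ccn3* in replicate 2 carried a conversion, against 19.2% of 99 and 21.1% of 19. Its mean of 0.0225 ± 0.0173 (SD, n = 3) was higher than 8.56% of the intervals, and without replicate 2 it was 0.0126. The beta-binomial p of 0.0314 for *Ccn3* rose to 0.0845 without unlabeled replicate 1 and to 0.0982 without unlabeled replicate 2. The unlabeled rates were 0.00355 and 0.00273, which were 3.19 and 4.18 times the rate of the whole library. The unlabeled rates of *Ccn1*, 0.00177 and 0.00182, were 1.60 and 2.80 times that of the library, and those of *Ccn2*, 0.000803 and 0.000358, lay below it.

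**Figure D2:**
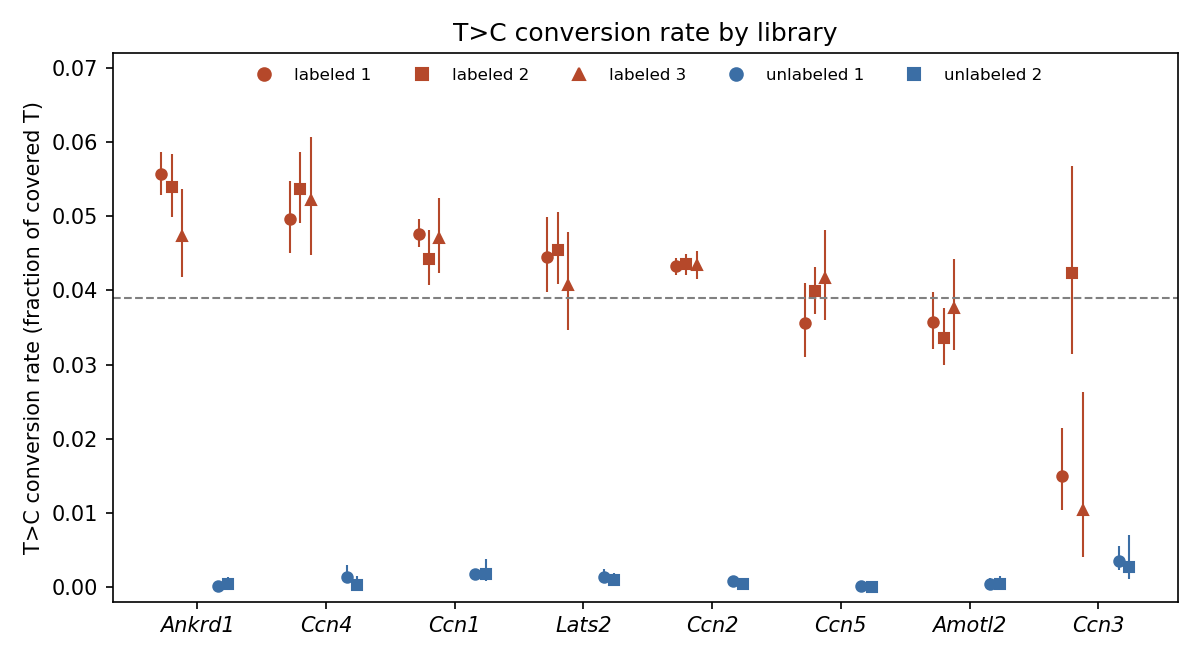
T>C conversion rate of each gene by library, as a fraction of covered T positions, with 95% Wilson intervals; labeled libraries are red, unlabeled libraries blue, and the dashed line is the median of 0.0390 over the 3156 deeply covered intervals. *Ankrd1* and *Ccn4* lie above the line in all 3 labeled libraries, *Amotl2* below it, and the 3 labeled values of *Ccn3* are split.

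**Figure D3:**
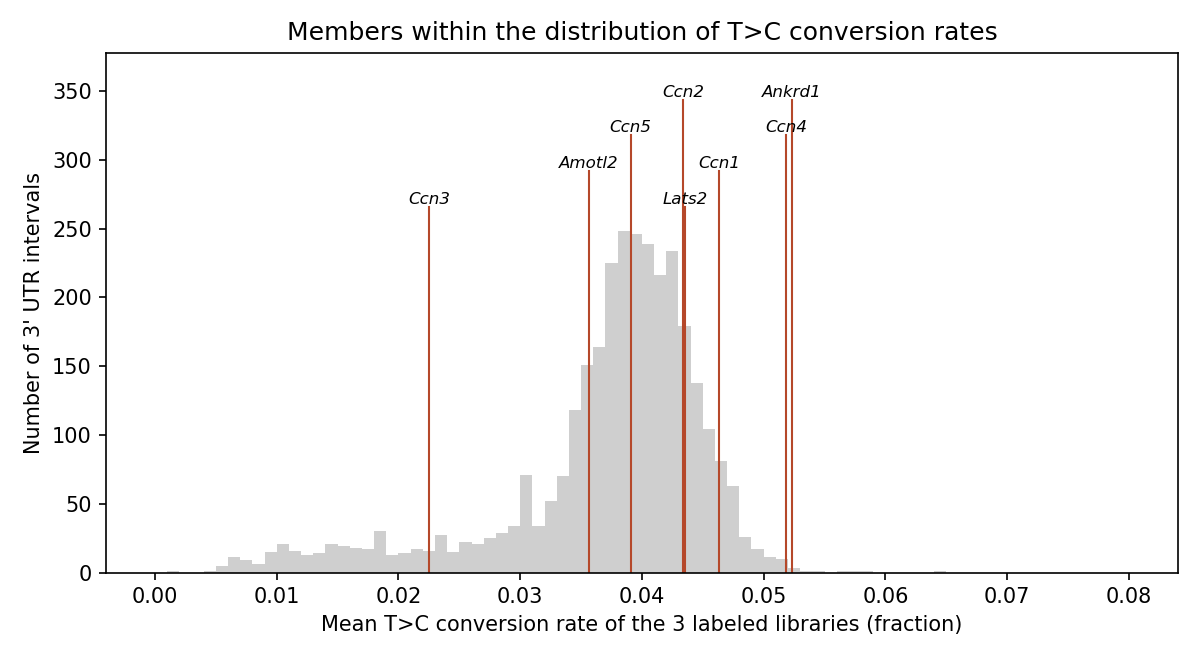
Histogram of the mean labeled T>C rate of the 3156 deeply covered intervals (1000 or more covered T positions per library) (bins of 0.001 on the x axis, number of intervals on the y axis), with a red line at the mean of each of the 8 genes. *Ankrd1* and *Ccn4* stand in the upper tail, *Ccn5* at the middle and *Ccn3*, which is not covered as deeply as the intervals drawn, in the lower tail.

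The AU-rich elements shown above can be set beside these rates. Among the deeply covered intervals, 2527 hold ATTTA and had a median rate of 0.0396, and 629 without it had 0.0353. Those that hold it were longer, with a median of 1857 against 459 bases. Of the same intervals, 280 hold TTATTTATT and had a median rate of 0.0406, and 2876 without it had 0.0389. Intervals with the element were also longer, with a median of 2673 against 1412.5 bases. *Ankrd1* and *Lats2*, the genes with this element, had rates of 0.0523 and 0.0436. The genes with the 4 highest mean rates, *Ankrd1*, *Ccn4*, *Ccn1* and *Lats2*, held 4, 4, 5 and 6 copies of ATTTA. *Ccn2*, *Ccn5* and *Amotl2*, which followed, held 2, 0 and 1. The cut between *Lats2* and *Ccn2* is not firm, since their rates did not differ beyond their spread. With the unlabeled rate subtracted, *Ccn2* (0.0428) was above *Lats2* (0.0424). *Ccn3*, with the lowest and most variable rate, held 5. In *Ccn4* the copies lie on 3747 bases, where intervals of similar length have a median of 6. A link between these copies and the rates was not tested.

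A second measure, the share of reads with at least 1 conversion, ordered the genes differently. *Ccn1* led with 71.0% ± 1.06 of reads (SD, n = 3), *Ccn2* had 66.8% ± 0.486, *Lats2* 64.7% ± 4.37, *Ankrd1* 64.4% ± 7.63 and *Ccn4* 62.3% ± 6.15. *Amotl2* had 48.7% ± 3.27, *Ccn5* 34.6% ± 13.0 and *Ccn3* 31.1% ± 19.1. This share depends on how many T positions a read covers. Reads of *Ccn1* covered 26.5 to 29.9 T positions each and those of *Ankrd1* 19.6 to 23.7. Reads of *Ccn5* covered 6.47 T positions in labeled replicate 1 and 15.5 and 13.7 in labeled replicates 2 and 3. In the unlabeled libraries they covered 7.25 in replicate 1 and 14.4 in replicate 2. Both libraries numbered 1 were thus low for *Ccn5*. The ratio of labeled replicate 1 to labeled replicate 2 was lower in 0.0476% of the 2103 genes covered as deeply, that of the unlabeled libraries in 0.190%. *Ankrd1* (98.7% and 97.5%) and *Ccn1* (97.8% and 95.2%) lay at the other end by these ratios. Over the 2103 genes, the median number of T positions covered per read was 19.9 in labeled replicate 1 and 22.4 in labeled replicate 2.

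Read counts were compared between labeled and unlabeled libraries to see whether the levels differed with S4U. The levels of *Ccn2*, *Ccn4* and *Amotl2* were higher in every labeled than in every unlabeled library, that of *Ccn3* was lower, and those of *Ccn1*, *Ccn5*, *Ankrd1* and *Lats2* overlapped. Over 9806 genes tested, every labeled library was above both controls in 8.21% and below both in 13.1%. None of the 8 genes passed edgeR's quasi-likelihood test after Benjamini-Hochberg adjustment over all genes, in which 0 genes passed in either direction (0.0% higher and 0.0% lower). Of the 8, 3 had an unadjusted p below 0.05 in the higher direction and 1 in the lower direction, against 279 (2.85%) and 307 (3.13%) of all genes. DESeq2 called 13 genes higher and 7 lower, none of them among the 8. With a replicate block, on 1 residual degree of freedom, edgeR called 529 of the 9806 genes higher and 617 lower. *Ccn1*, *Ccn4*, *Ccn2*, *Amotl2* and *Ankrd1* were then called higher and *Ccn3* lower, although the labels name no preparation that a replicate number shares.

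*Ccn4* had 272, 325 and 267 RPM in labeled replicates 1, 2 and 3, and its unlabeled values were 111 and 154. All labeled libraries were above both controls, and the log2 fold change of *Ccn4* was 1.20 (standard error 0.28, unadjusted p = 0.00376, adjusted p = 0.543, edgeR). *Ccn2* had 1676 and 1372 in the unlabeled libraries, below the labeled values given above, and the log2 fold change was 1.06 (standard error 0.25, unadjusted p = 0.00425, adjusted p = 0.546, edgeR). *Amotl2* had 334, 336 and 314 labeled and 201 and 237 unlabeled, again without overlap, with a log2 fold change of 0.66 (standard error 0.24, unadjusted p = 0.0283, adjusted p = 0.766, edgeR).

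*Ccn3* went the other way, with 62.8, 39.3 and 37.5 RPM labeled and 142 and 67.3 unlabeled. Its log2 fold change was −1.07 (standard error 0.39, unadjusted p = 0.0275, adjusted p = 0.757, edgeR), from 19 to 99 reads per labeled library. The highest labeled and the lowest unlabeled value of *Ccn3* were close, and without unlabeled replicate 1 the log2 fold change was −0.49.

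*Ccn1* varied most between libraries relative to its mean. It had 1069, 377 and 488 labeled and 501 and 137 unlabeled, and the groups overlapped. The log2 fold change of *Ccn1* was 1.11 with a standard error of 0.62 (adjusted p = 0.955, edgeR), close in size to that of *Ccn2* and with a larger error. The size moved with single libraries: it was 0.55 without labeled replicate 1, 2.26 without unlabeled replicate 1 and 0.47 without unlabeled replicate 2 on the log2 scale. Within replicate numbers 1 and 2 the labeled value of *Ccn1* was the higher, and with a replicate block its log2 fold change was 1.30 and passed. The labels name no preparation that a number shares.

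*Ankrd1* had 627, 444 and 490.1 labeled and 461 and 328 unlabeled, with a log2 fold change of 0.48 (standard error 0.27). Only labeled replicate 2 lay below a control. Cardiomyocytes also express *Ankrd1*. The CF isolation included a centrifugation to pellet cardiomyocytes, and the cardiomyocyte markers summed to at most 9.04 RPM in any library. The part of cardiomyocytes in the reads of *Ankrd1* was not tested. *Ccn5* had 531, 776 and 609 labeled and 544 and 588 unlabeled, and *Lats2* 181, 223 and 243 labeled and 191 and 256 unlabeled. The groups of both genes overlapped, with log2 fold changes of 0.25 and 0.02 and standard errors of 0.27 and 0.28. The median log2 fold change was 0.57 over the 8 genes and 0.02 over all genes tested.

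**Figure D4:**
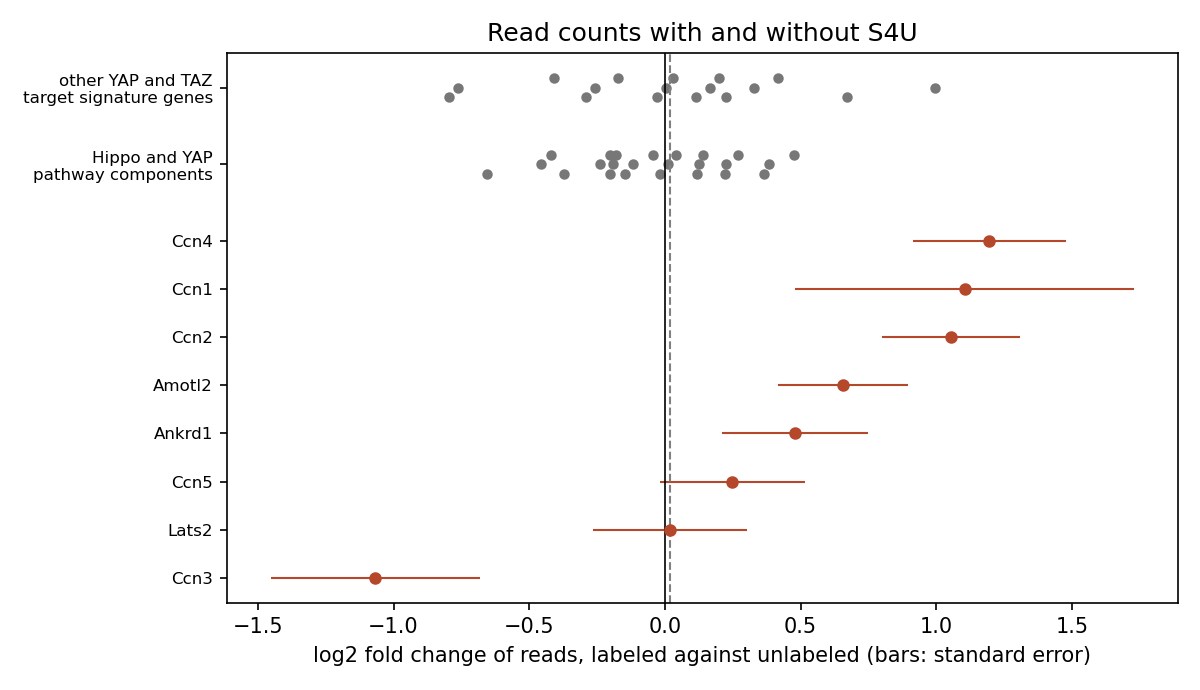
Log2 fold change of reads, labeled against unlabeled, for the 8 genes with standard errors (red) and for the tested genes of the pathway lists (grey dots, spread vertically for legibility); the dashed line is the median of 0.02 over all 9806 genes. *Ccn4*, *Ccn1* and *Ccn2* lie above 1 and *Ccn3* below −1, and the grey dots lie on both sides of 0.

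The rest of the pathway was read from 2 lists. Of 25 Hippo and YAP components, 24 had enough reads to be tested, and only *Tead4* did not. Their median log2 fold change was −0.03, with 11 above and 13 below 0, and none had an unadjusted p below 0.05 (0 of 24, edgeR). Beside the 8.21% and 13.1% of all genes, 1 of the 24 was above both controls in each labeled library (*Frmd6*, an upstream activator) and 4 were below them (*Yap1*, *Wwc1*, *Taok1* and *Limd1*). Of the TEAD factors, *Tead1* had 819 ± 225 RPM labeled (SD, n = 3), *Tead3* 42.5 ± 12.0 and *Tead2* 5.02 ± 3.77. The coactivators *Wwtr1*, which encodes TAZ, and *Yap1* had 328 ± 98.8 and 126 ± 24.1. *Lats1*, the other LATS kinase, had 82.2 ± 14.3, and its labeled and unlabeled libraries overlapped, as did those of *Tead1*, *Tead2*, *Tead3* and *Wwtr1*.

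Of 17 other genes of a YAP and TAZ target signature, all were tested, and the median log2 fold change was 0.03, with 10 above and 7 below 0. At an unadjusted p below 0.05, 0 of the 17 were higher and 2 lower, beside 2.85% and 3.13% of all genes. *Tgfb2*, a TGF-β ligand, had 125, 111 and 113 RPM labeled and 247 and 179.7 unlabeled, a log2 fold change of −0.80 (standard error 0.24, unadjusted p = 0.0132, adjusted p = 0.703, edgeR). *Myof*, a membrane repair protein, had 114, 121 and 128 labeled and 214 and 219 unlabeled, a log2 fold change of −0.76 (standard error 0.23, unadjusted p = 0.0136, adjusted p = 0.703, edgeR). Neither overlapped between groups. *Foxf2* was above both controls in each labeled library, so that 1 of the 17 was above and 2 were below, beside 8.21% and 13.1% of all genes.

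The 11 deeply covered Hippo and YAP components had rates from 0.0378 for *Limd1* to 0.0443 for *Vgll3*, with a median of 0.0404. The 9 deeply covered signature genes ranged from 0.0190 for *Ccdc80* to 0.0503 for *F3*, the tissue factor gene, with a median of 0.0384. The 7 deeply covered genes of the CCN and YAP set ranged from 0.0356 to 0.0523, with a median of 0.0436. *F3* lay between *Ccn1* and *Ccn4*, and every other deeply covered gene of both lists lay below *Ccn1*.

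The genes whose levels over the 5 libraries were most like those of *Ccn1* and *Ccn2* were sought among 9044 genes with a mean of at least 10 RPM, by the Euclidean distance between log2 levels (pseudocount 1) centred on each gene's mean. For *Ccn2* these were *Isy1* (distance 0.140), *Pkdcc* (0.154) and *Trp53inp1* (0.188), where the median distance was 1.47. *Trp53inp1* had 211, 181 and 231 RPM labeled and 99.9 and 89.4 unlabeled. For *Ccn1* they were *Alpl* (0.366), *Klkb1* (0.452) and *Eif2s3x* (0.466), where the median distance was 2.24. *Amotl2*, *Ankrd1* and *Ccn4* held ranks 221, 353 and 379 by distance from *Ccn2*. *Ccn5*, *Lats2*, *Ccn1* and *Ccn3* held ranks 1932, 3114, 4975 and 8406. From *Ccn1*, the nearest member was *Ankrd1* at rank 607, and *Ccn1* and *Ankrd1* both had their highest labeled value in replicate 1. With 5 libraries these distances are a description only.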

How the data were processed

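The authors moved unique molecular identifiers into the read headers with umi-tools, aligned them to the mouse genome mm39 in SLAM-DUNK 0.4.3 and removed duplicates. Per the file headers, the deposited tables hold, per 3′ UTR interval, counts of reads, of T positions covered and of conversions. The deposited conversion rate is the fraction of covered T positions read as C. The deposited CPM divides by a number of reads per library that is 7.58 to 28.9 times the reads counted, so levels were recomputed over the counted reads (RPM). Repeated rows were used once, and ties between intervals of a gene went to the shorter. The T content of 40380 of 40380 intervals on reference chromosomes matched GRCm39.

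Reads were tested by edgeR's quasi-likelihood method (TMM, filterByExpr, Benjamini-Hochberg over 9806 genes). For T>C rates, a two-sided likelihood-ratio test of a beta-binomial model was fitted to each interval with a covered T per library. The software was R 4.3.3 with edgeR 4.0.16, limma 3.58.1 and DESeq2 1.42.0, and Python 3.11.15 with scipy 1.17.1, numba 0.67.0, numpy 2.4.6, matplotlib 3.10.9 and pandas 2.3.3. Depth ranged from 506045 to 1842706 counted reads and from 15282090 to 53609626 covered T positions per library. A rate of 0 is given with its upper limit, 3 conversions over the T positions covered. On simulated data, the beta-binomial test called 100% of 200 changed and 5.71% of unchanged intervals among 3000. For reads, edgeR recovered 94 of 200 genes simulated with a log2 fold change of 2 among 9548, with 9 false calls. With the replicate block edgeR recovered 99 with 17 false calls, and DESeq2 recovered 120 with 15 false calls. The simulated counts held no effect shared by libraries of the same number. They cannot show how the blocked fit behaves where such an effect is present.

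The genes named are the 8 members, genes of the 2 pathway lists that passed a test, did not overlap or encode the coactivators, TEAD factors and LATS kinases, the ends of the range of rates, markers, and the 3 genes nearest to *Ccn1* and *Ccn2*. The members and lists were chosen with earlier results of these data known. The alternatives were DESeq2, other size factors, no filter, summed intervals, a replicate block, coverage minimums, Benjamini-Hochberg adjustment, limma on log odds with a pseudocount of 0.5, other scales and each library left out in turn.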

Additional observations from a re-analysis of the deposited data

Results flagged for a closer look

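One signal lay outside the main measurement. *Lats2* has a short second interval at chr14:57959646-57959816 of GRCm39 (minus strand), upstream of the one described, with 2, 4 and 4 reads in labeled replicates 1, 2 and 3 and 2 and 1 in the unlabeled libraries. Its T>C rate was 0.105 in the labeled libraries together (22 conversions of 209 covered T positions, 95% Wilson interval 0.0705 to 0.154) and 0.0128 in the unlabeled libraries (1 of 78, 0.00227 to 0.0691). The main interval of *Lats2* had a mean rate of 0.0436. The intervals cover counting error only, and conversions on so few reads are not independent of each other.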

How the results depend on the processing

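For read counts, the 0 genes higher and 0 lower became 13 and 7 with DESeq2 and its size factors, and the cause was not tested. With the replicate block edgeR called 529 higher and 617 lower (1 residual degree of freedom), and the blocked log2 fold changes were 1.30 for *Ccn1*, 1.24 for *Ccn4*, 0.95 for *Ccn2*, 0.68 for *Amotl2*, 0.49 for *Ankrd1* and −0.96 for *Ccn3*, which passed, and 0.23 for *Ccn5* and −0.087 for *Lats2*, which did not. The labels give numbers 1 and 2 to both groups but name no preparation that a number shares. After subtraction of the group means, log2 levels correlated at 0.784 for number 1 and 0.638 for number 2. Labeled replicate 3 correlated at 0.482 with unlabeled replicate 2. With 2 unlabeled libraries the deviations mirror each other, so labeled replicate 1 had −0.784 with unlabeled replicate 2. The libraries of the same number thus deviated in the same direction. The paper states that cells without S4U were kept in parallel, but it ties no number to a preparation. Whether a number marks a shared preparation was not tested. With each library left out, 0 genes were called in either direction. *Lats2*, at 0.02, was −0.087 with the replicate block and −0.22 to 0.30 with each library left out, below 0 without labeled replicate 3 (−0.079) and without unlabeled replicate 1.

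The 18200 intervals with a raised T>C rate became 3154 at a minimum of 1000 covered T positions, because fewer intervals were tested, and were 17056 to 18632 with each library left out. The 0 intervals with a lower rate became 1 with limma on the log odds and 2 with limma and the replicate block. *Ccn3* could not be tested at 1000 covered T positions. The labeled libraries of *Ccn3* covered 387 to 1876 T positions. Deposited CPM kept the order of the 8 levels by RPM, in which *Ccn4* is above *Lats2*, unlike the order per kilobase.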
